A study of Arabidopsis thaliana with 4 samples.

Results

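The heterochromatic knob on the short arm of Arabidopsis thaliana chromosome 4 is described here by its DNA methylation in shoot apices. It was taken as the stretch from 1600 to 2330 kb, which is 73 of the 11916 windows of 10 kb on the 5 nuclear chromosomes, and it was compared with the gene-rich flank from 1000 to 1600 kb, which holds 60 windows. The bounds are positions and no methylation value enters them, though they were proposed with results of these data known. The study asked whether the gas nitric oxide changes DNA methylation in the shoot apex, and its lists of methylated cytosines come from 2 mock libraries and 2 libraries treated with sodium nitroprusside (SNP), a nitric oxide donor. Mock plants received 0.025% of the wetting agent Silwet, SNP plants received the same with 1 mM SNP, and both were sampled after 24 h. The labels give the genotype of all 4 libraries as Col-0, and the methods of the study name apices of ap1/cal, a double mutant that forms masses of inflorescence meristems, so the mock libraries carry the same alleles as the SNP libraries. Apices hold several cell layers and zones, and a level is a mean over all of them. The methods speak of biological replicates and the labels do not say that the libraries of a group came from separate plant batches, so p-values measure only the spread between these libraries.

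A knob is a block of condensed chromatin that lies away from the centromere. In Columbia the knob of chromosome 4 consists of sequence that once lay beside the centromere and was moved by an inversion, and it is rich in transposons with active genes between them. Plants methylate cytosines in the contexts CG, CHG and CHH, where H is any base but G. MET1 copies CG methylation, CMT3 maintains CHG methylation together with the histone mark H3K9me2, and CHH methylation is made by CMT2 in long heterochromatic transposons and by DRM2, which is guided by small RNAs and AGO4. CMT2 acts mostly on cytosines followed by AA or TA. Methylation in CG alone is common in the bodies of active genes.

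Sequences of 4 stretches show what these values look like on the DNA. They are the plus strand of chromosome 4 in the RefSeq copy of TAIR10.1, 5′ to 3′, and a capital C or G marks a cytosine that was listed as methylated in all 4 libraries on the plus or the minus strand. The first is the 120-base bin of the knob with the most such CHH cytosines (chr4:2074721-2074840, intergenic, 2948 bases after the end of pseudogene AT4G04290), the second is the bin of the flank chosen in the same way (chr4:1090721-1090840, intergenic, after AT4G02480), the third lies in a tandem array of the knob that holds no annotated gene (chr4:1718153-1718272), and the fourth is the 140-base stretch of AT4G04555 in which the CG level differed most between the groups (chr4:2265890-2266029, inside the gene).
knob CHH bin: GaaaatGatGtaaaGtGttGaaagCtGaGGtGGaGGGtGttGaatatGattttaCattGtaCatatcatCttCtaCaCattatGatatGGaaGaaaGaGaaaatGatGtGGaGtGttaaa
flank CHH bin: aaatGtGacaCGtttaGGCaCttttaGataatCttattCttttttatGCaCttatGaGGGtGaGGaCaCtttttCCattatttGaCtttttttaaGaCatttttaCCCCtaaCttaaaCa
tandem array: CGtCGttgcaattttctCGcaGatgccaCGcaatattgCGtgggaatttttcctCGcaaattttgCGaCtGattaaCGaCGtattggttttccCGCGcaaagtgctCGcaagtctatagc
AT4G04555: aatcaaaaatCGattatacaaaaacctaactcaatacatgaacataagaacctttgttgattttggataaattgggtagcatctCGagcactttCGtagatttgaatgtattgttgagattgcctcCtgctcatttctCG
In the knob bin 35 of 37 CHH cytosines were listed in every library, in the flank bin 33 of 34. In the array stretch all 24 CG cytosines were listed and none of the 27 CHH cytosines was. That stretch is denser in CG than the whole array, which holds 3090 CG cytosines in 46638 bases. Over the whole array 78.3% to 82.7% of CG and 4.71% to 6.23% of CHH cytosines were listed in a library.

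The lists held between 3857352 and 4134559 nuclear sites a library with 42221751 to 50875710 reads on them, and between 76695 and 80863 of those sites lay in the knob. The median depth of listed sites was 8 to 10 reads over the nuclear lists, and in the knob 7 to 9 reads in CG, 8 to 9 in CHG and 9 to 10 in CHH, and no knob site exceeded 39 reads in a library. A site enters a list only with at least 2 methylated reads, so a cytosine that is not listed was either not covered or not called. A share of listed cytosines therefore says how many were called, not how many carry methylation, and a level, the methylated reads over all reads, is that of listed sites only. Of the 75-base words of the knob, 91.6% occur once in the genome, against 98.0% in the flank, and reads from the other words may be missing.

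Most CG and CHG cytosines of the knob were listed as methylated, and few of the flank were. Of the 38480 CG cytosines of the knob, 80.6% and 79.8% were listed in the mock libraries and 80.5% and 79.4% in the SNP libraries, against 28.7%, 28.9%, 29.8% and 29.1% in the flank. CHG cytosines, 37329 in the knob, were listed at 67.03% and 66.6% in the mock libraries and at 67.3% and 65.2% after SNP, against 10.2%, 10.4%, 10.7% and 10.04% in the flank. No library of the flank came near any library of the knob in these contexts. CHH cytosines of the knob were listed at 11.9% and 12.6% in the mock libraries and at 12.8% and 11.3% after SNP, and those of the flank at 4.05% to 4.78%. The 95% Wilson interval of the CHH share in the first mock library was 11.8% to 12.1%, which covers counting error only, and the spread between libraries was wider than that.

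As a ratio of knob to flank within each library, the contrast was largest in CHG, the context of CMT3, with 6.46-fold (range 6.32 to 6.57, n = 4). It was 2.75-fold in CG (2.70 to 2.80) and 2.78-fold in CHH (2.64 to 2.85). An exact permutation test of the log2 ratios between mock and SNP gave p = 0.333, 0.667 and 1 for CG, CHG and CHH, and 0.333 is the smallest p that 2 against 2 libraries allow.

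Of all knob CG cytosines listed in any library 86.3% were listed in all 4, of CHG cytosines 67.9% and of CHH cytosines 9.89%, and 52.8% of the CHH cytosines were listed in 1 library only. Between 38.4% and 49.2% of the CHH sites in a knob list rested on exactly 2 methylated reads, the fewest a listed site can have, whereas 4.24% to 6.22% of CG sites did.

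The pericentromere of chromosome 4 (3000 to 5000 kb), with 3.52% of its bases in protein-coding genes and 44.5% in pseudogenes, was listed somewhat more densely. The knob reached 0.891 of its CG share, 0.849 of its CHG share and 0.885 of its CHH share, below 1 in all 4 libraries. The side of the knob towards the centromere (2330 to 2730 kb), with 48.8% of its bases in protein-coding genes, was listed less densely than the knob by 1.87-fold in CG, 2.87-fold in CHG and 1.80-fold in CHH. The CHG edges given below, at 1590000 and 2370000, fall inside the flank and this side, so both regions hold some densely listed sequence. Its part in the ratios to the knob was not tested.

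**Figure D1:**
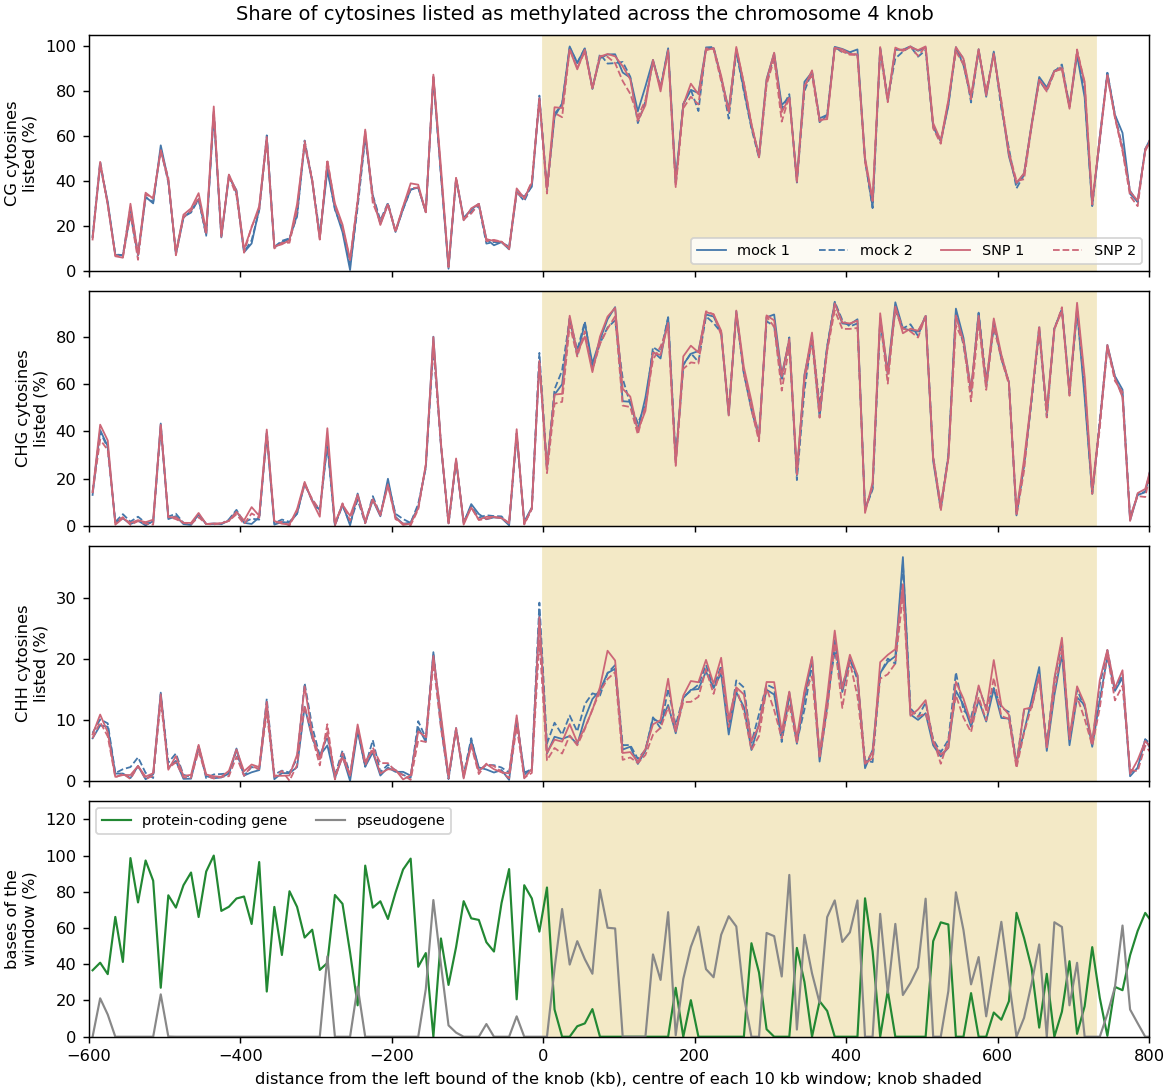
Percentage of reference cytosines listed as methylated in each 10 kb window from 600 kb before to 800 kb after the left bound of the knob (shaded), for CG, CHG and CHH, with a line for each library, and the percentage of window bases in protein-coding genes and pseudogenes at the bottom. The 4 libraries run close together, and the 11 knob windows under 30% in CHG have 27.0% or more of their bases in protein-coding genes.

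Along the knob the methylation was not even. The listed CHG share of its 73 windows ran from 5.28% to 93.6% with a median of 72.8%, and 57 windows had at least 50%, against 2 of the 60 flank windows. CG shares ran from 29.5% to 99.9% (median 82.0%) and CHH shares from 2.69% to 33.8% (median 12.03%). In 11 windows of the knob fewer than 30% of the CHG cytosines were listed, and in these protein-coding genes covered 27.0% to 82.4% of the bases, against 14.99% over the whole knob.

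The window with the lowest CHG share, from 2220001, had 4.5%, 5.9%, 6.5% and 4.3% in mock 1, mock 2, SNP 1 and SNP 2. It holds the end of WRKY42, a transcription factor of the WRKY family, the aspartyl protease gene AT4G04460, PMP22, which encodes a protein of the peroxisomal membrane, and an F-box gene. The next windows, from 2020001 and 2120001, had mean shares of 6.63% and 7.70%. The first holds AT4G04200, which encodes a subunit of the microsomal signal peptidase, and the second holds AT4G04340, of the ERD family of dehydration-responsive genes, and the start of EMB2369, a tRNA synthetase gene. The window from 2320001 with APR1, the APS reductase of sulphate assimilation, had 14.1%, and that from 2030001 with the receptor-like protein gene RLP46 had 16.7%. In each of the 5 the libraries differed by less than 3 points.

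The windows with the highest CHG share held mostly pseudogenes. From 1980001 the shares were 94.5%, 94.8%, 94.1% and 91.2% over 3 pseudogenes, and from 2060001 they were 94.6%, 91.1%, 92.8% and 92.2% over 5 pseudogenes. Those from 2300001, 2280001 and 1850001 had means of 92.2%, 91.6% and 90.2%. That from 2280001 also holds the first part of CRK40, a gene for a cysteine-rich receptor-like kinase.

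Across the 73 windows the listed share fell with the protein-coding content. Pearson's r was −0.78 in CG, −0.83 in CHG and −0.52 in CHH, and Spearman's rho −0.70, −0.66 and −0.48. These are descriptions across windows, which share libraries and neighbouring sequence. The same r with the share of unique 75-base words was 0.02, 0.10 and 0.30, and in the flank the r between listed share and protein-coding content was −0.16 in CG, −0.64 in CHG and −0.61 in CHH.

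**Figure D2:**
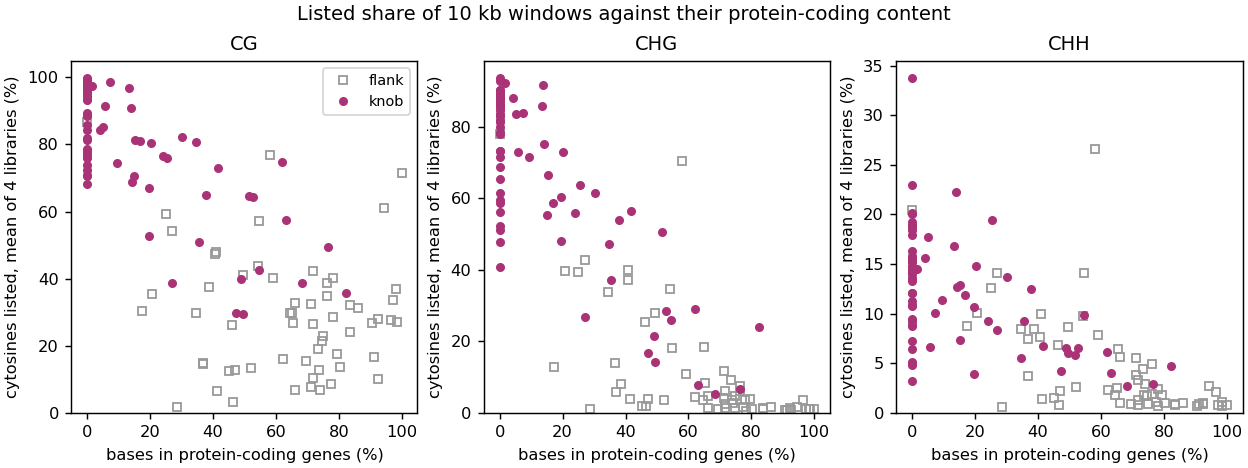
Mean percentage of cytosines listed over the 4 libraries against the percentage of bases in protein-coding genes, for the 73 knob windows (filled) and the 60 flank windows (open), in CG, CHG and CHH. The share falls with coding content in the knob, and the knob window with the largest CHH share, 33.8%, has none.

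That window, from 2070001, was picked out after its values were seen. Its CHH share was 36.7% and 35.7% in the mock libraries against 32.3% and 30.6% after SNP, and the number of listed sites did not pass the test described further on, while its CG share was 97.7% to 98.6%. It contains the knob CHH bin printed above, and 23.0% of its bases lie in a pseudogene.

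The edges in the data depended on the setting. With 10 windows of 10 kb on either side, those of CHG and CHH lay outside the bounds of the definition on both sides. Those of CG did so only on the right. An edge was placed at the boundary between 10 kb windows with the largest step in listed share over 10 windows on either side. In CHG the left edge fell at position 1590000 in all 4 libraries, 10 kb before the left bound, with a step from 7.33% to 68.3% over the pooled libraries. The right edge fell at 2370000 in all 4, 40 kb past the right bound, with a step from 63.4% to 16.6%. CHH gave the same edges, at steps from 2.94% to 11.7% and from 14.4% to 4.03%. CG placed the left edge at 1610000, 10 kb inside the bound, and the right at 2360000 in every library. Each of these positions was the same in all 4 libraries with 10 kb windows. With 5 windows on either side in place of 10, the CG right edge fell at 2200000 and the CHH left edge at 1650000 over the pooled libraries, both inside the bounds. The CG left edge then fell at 1590000, outside its bound. With 1 kb windows the left edge of the pooled libraries was at 1593000 in each context, and the right edge at 2367000 in CG and CHG and 2368000 in CHH. By library, the left edge then fell at 1592000 in CHG in mock 1 and at 1594000 in CHH in both SNP libraries, and at 1593000 otherwise.

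Single windows at the edges show the step. In the window before the left edge the CHG share was 7.84% and 7.25% in mock and 7.65% and 7.25% in SNP, and in the window after it 69.6%, 73.2%, 69.8% and 68.7%. That window also had 23.1% to 29.3% of its CHH cytosines listed, and only the window from 2070001 had a higher mean CHH share within the knob. Next to it, the first window within the bounds fell back to 22.4% to 24.9% in CHG, over genes such as AT4G03600, a pyrroline-5-carboxylate reductase. On the right, the CHG share fell from 54.5% to 57.7% before the edge to 2.19% to 4.17% after it. With 10 kb windows the right edge of CHG and CHH lies in AT4G04670, a gene for a Met-10+ like and kelch-repeat protein (positions 2367434 to 2372220, plus strand). With 1 kb windows the pooled edge at 2367000 in CG and CHG lies before this gene, and that at 2368000 in CHH inside it. The coarser position follows the 10 kb grid. The body of AT4G04670 had 48.6% to 53.6% of CG cytosines listed and 0.730% to 1.46% of CHG cytosines. The right bound itself lies in ATG8B, an autophagy gene, where 4.65% to 6.98% of CG cytosines were listed.

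The knob holds 204 annotated genes, of which 58 are protein-coding and 121 are pseudogenes, whereas the flank has 151 protein-coding genes and 15 pseudogenes among 215. Protein-coding genes cover 64.0% of the flank. Pseudogenes of the knob were densely listed in CG and CHG. In bodies with at least 30 cytosines of a context, the median share of cytosines listed in all 4 libraries was 95.2% in CG over 108 pseudogenes, 72.3% in CHG over 104 and 3.03% in CHH over 121. Pseudogenes of the whole genome had medians of 89.1%, 64.9% and 1.84% in these contexts. Those of the flank had 64.7%, 53.4% and 4.27%, over 10, 11 and 15 pseudogenes. Protein-coding genes of the knob had medians of 28.8%, 0% and 0%, and 13 of 54 had more than 50% of their CHG cytosines listed, against 2 of 142 in the flank and 544 of 25571 in the whole genome.

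At the low end, 28 of those 54 protein-coding genes had no CHG cytosine listed in all 4 libraries. In the flank 130 of 142 had none, and in the whole genome 23776 of 25571. Among the 28 knob genes are FIB, which encodes fibrillin, a plastid lipid-associated protein, MEE51, a phosphofructokinase family gene, APR1, PMP22 and RLP46. EMB2369 had 57.0% of its CG cytosines listed in all 4 and no CHG cytosine, and AT4G04340 had 58.97% in CG and none in CHG. In single libraries 0.287% to 2.29% of the CHG cytosines of EMB2369 were listed and 0% to 0.606% of those of AT4G04340, with 0.212% to 0.919% and 0.437% to 1.75% of their CHH cytosines. The genes AT4G03610 and AT4G03620 overlap on opposite strands, so their shared cytosines count for both.

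Of the protein-coding genes with at least 30 CHG cytosines, AT4G04415, which encodes an uncharacterized protein, had the highest share, with 95.7%, 95.7%, 96.7% and 96.7% of its 92 CHG cytosines listed. AT4G04265, annotated as a transposase of the En/Spm type, had 97.3%, 89.2%, 100% and 91.9%. The cystatin family gene AT4G03590 had 94.4%, 96.7%, 93.3% and 87.8%, while its neighbour AT4G03600 in the same window had no CHG cytosine listed in all 4. AT4G03645, uncharacterized, and AT4G04402, a phosphorelay mediator gene, had mean CHG shares of 91.2% and 90.6%. Mean CG shares of these 5 genes were 98.2% to 100%.

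A cluster of 5 genes for cysteine-rich receptor-like kinases, a family of membrane kinases known from responses to pathogens and reactive oxygen, lies near the right end of the knob, from CRK36 at position 2231717 to the end of CRK40 at 2292965. CRK37 had the lowest CG share in its body, at 7.48%, 6.80%, 10.2% and 8.84% in the order above. CRK39 and CRK36 had mean CG shares of 28.2% and 29.3%, and CRK40 had 36.6%. CRK38 lay between 23.6% and 26.4%. In CHG, CRK36 to CRK39 had mean shares of 0.775% to 6.63%, while CRK40 had 16.1%, 15.6%, 14.2% and 14.2%. All 5 lay below the median of 72.3% that pseudogenes of the knob had in CHG, while protein-coding genes of the knob had a median of 0%. Both medians count cytosines listed in all 4 libraries, a stricter measure than the shares given here for the kinase genes. The family has close copies, so reads that fit more than 1 member may be missing.

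**Figure D3:**
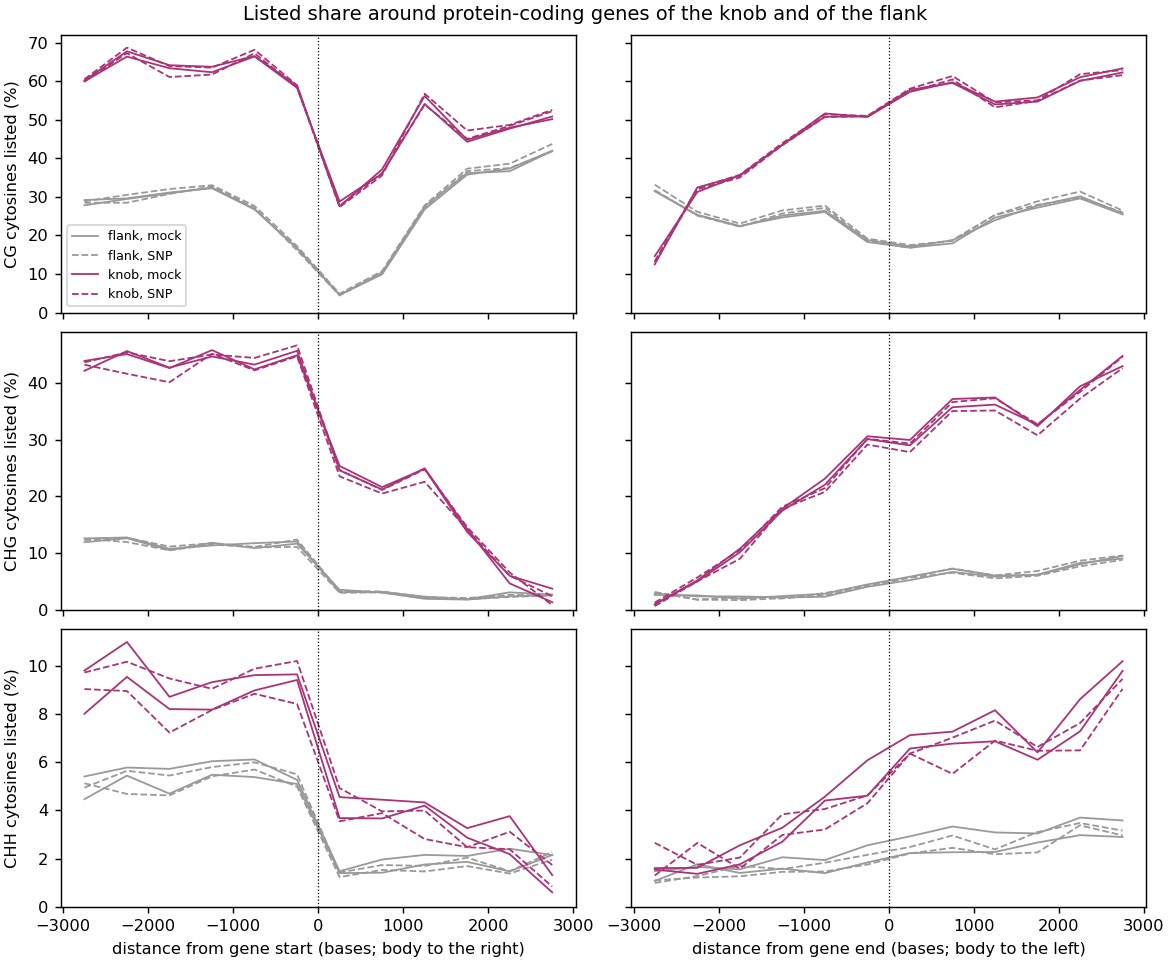
Percentage of cytosines listed in bins of 500 bases around the start (left) and the end (right) of the 58 protein-coding genes of the knob and the 151 of the flank, by context, with a line for each library (solid mock, dashed SNP). Shares fall at the gene start in both regions, from 58.6% to 27.8% in CG and from 45.5% to 24.5% in CHG in the knob.

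Around protein-coding genes, the fall was sharp at the start. In the last 500 bases before knob genes the mean listed share was 58.6% in CG, 45.5% in CHG and 9.42% in CHH, and in the first 500 bases of the body 27.8%, 24.5% and 4.18%. In the flank these shares were 16.7%, 11.8% and 5.21% before the start and 4.60%, 3.21% and 1.38% after it. Beyond 2500 bases into the body, where only long genes contribute, the CHG share was 2.05% in the knob and 2.55% in the flank. Past the gene end CHG methylation in the knob rose to 43.8% at 2500 to 3000 bases. The fall at the start was present in each of the 4 libraries.

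By neighbouring bases, the excess of the knob over the flank in CHH lay mainly at CAA and CTA, the sites that CMT2 prefers. CAA and CTA cytosines of the knob were listed at 26.8% and 28.3% on average over the libraries (25.2% to 28.5% and 26.6% to 29.7%), against 6.67% and 7.18% in the flank. The other 7 CHH contexts had mean shares of 3.03% to 9.46% in the knob and 2.59% to 3.79% in the flank. CCC cytosines were listed at 3.42% in the knob and 3.69% in the flank, and the libraries of the regions overlapped. In the pericentromere CAA and CTA had 33.6% and 33.5%.

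CHG cytosines showed an order too. CAG and CTG cytosines of the knob were listed at 71.03% and 71.9% and CCG cytosines at 48.9%, with levels of 75.8%, 77.2% and 52.3% on average, and the ranges of CCG did not overlap with those of the others. In the flank the shares of CAG, CTG and CCG were 9.96%, 10.3% and 11.1%, so CCG was not the least listed there, and its level was again the lowest, at 55.9%.

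A tandem array without any annotated gene lies at positions 1697153 to 1743790, which is 46638 bases long, and was chosen for description after the windows were seen. It is built of copies with a period of 1948 bases, within 20 bases of which 57.3% of the repeated 24-base words recur. It holds 3090 CG and 1535 CHG cytosines, whereas the rest of the knob holds 35390 and 35794. Its CG share, 82.7%, 81.0%, 80.2% and 78.3% over the libraries, overlapped with that of the rest of the knob, 79.5% to 80.6%. Its CHG share was 51.7% to 56.0% against 65.8% to 67.8%, and its CHH share 4.71% to 6.23% against 11.7% to 13.3%. The CG level of its common sites was 94.98% to 95.9%, above the 92.6% to 93.2% elsewhere, and its CHG level was 62.3% to 64.8%, below the 73.5% to 75.0% elsewhere. Only 52.0% of its 75-base words are unique, against 94.2% in the rest of the knob, and the part of this in the values was not tested.

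The level of methylation at listed sites put knob and flank in the same order as the share in CG and CHG, and in the reverse order in CHH. It was taken over sites with 5 to 50 reads in every library, 17562 CG, 13722 CHG and 4309 CHH sites in the knob. Knob CG sites had levels of 93.3%, 93.1%, 92.7% and 92.9% in mock 1, mock 2, SNP 1 and SNP 2, and flank sites 90.0%, 90.4%, 87.7% and 88.1%. Within a library the knob exceeded the flank by 3.92 ± 1.13 percentage points (SD, n = 4) in CG and by 0.837 ± 0.492 in CHG. In CHH, listed sites of the knob had a lower level than those of the flank, by 8.58, 6.90, 6.20 and 6.19 points in the 4 libraries, a mean of −6.97 ± 1.13. In each of the 3 contexts all 4 libraries gave the same sign, and an exact permutation test of signs gave p = 0.125, the smallest that 4 libraries allow. With each library's own list of sites the CG and CHG differences were 7.38 and 6.17 points, and with at least 10 reads a site the CHG difference was 3.02.

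**Figure D4:**
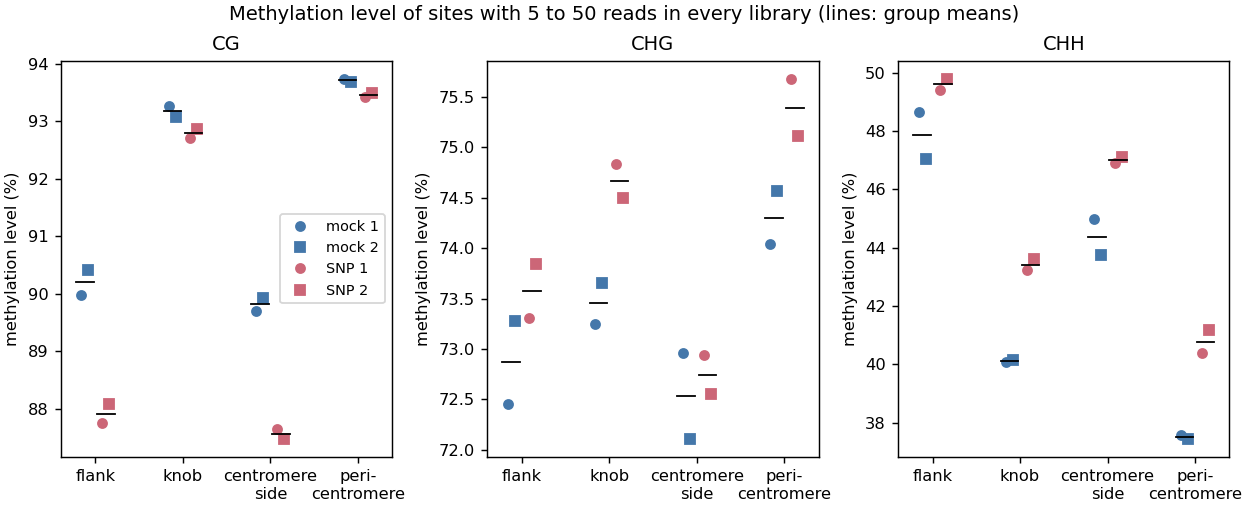
Methylation level in per cent of sites with 5 to 50 reads in every library, for the flank, the knob, the side towards the centromere and the pericentromere, by context, with a point for each library and a line for each group mean. In the knob the SNP libraries lie below the mock libraries in CG and above them in CHG and CHH.

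Between SNP and mock libraries, levels in the knob differed little in CG, were slightly higher with SNP in CHG, and were higher with SNP in CHH, the context of CMT2 and of DRM2. In CG the group means were 93.2% ± 0.141 in mock and 92.8% ± 0.111 in SNP (SD, n = 2), a difference of −0.382 points. CHG sites of the knob had 73.3% and 73.6% without SNP and 74.8% and 74.5% with it, a difference of 1.21 points at a pooled SD of 0.259. CHH sites of the knob had 40.1% in both mock libraries and 43.2% and 43.6% after SNP, a difference of 3.29 points at a pooled SD of 0.189. The groups did not overlap in any of the contexts, and an exact permutation test gave p = 0.333 for each, the smallest possible, so none can pass 0.05. The mean depth of the common CHH sites was 11.3 and 10.5 reads in the mock libraries and 10.4 and 9.82 after SNP, so depth moved with the groups. With reads thinned to the smallest depth at each site the CHH difference was 1.51 points and the CHG difference 0.779. With at least 10 reads a site they were 2.47 and 1.504, and the CG difference was −1.03.

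The SNP effect was also compared between flank and knob. CG levels in the flank were lower with SNP by 2.29 points and those of the knob by 0.382, so the difference between the regions was 1.91 points at a pooled SD of 0.325 (exact permutation p = 0.333, the smallest possible). In CHG and CHH it was 0.508 and 1.55 points, with exact permutation p = 0.667 and 0.333. With at least 10 reads a site the differences between the regions were 0.495 points in CG, −0.0428 in CHG and 1.04 in CHH, at pooled SDs of 1.23, 0.412 and 1.25. The sign in CHG also turned without the first SNP library, to −0.203. Against the pericentromere, where SNP minus mock was −0.253, 1.09 and 3.26 points in CG, CHG and CHH, the knob differed by −0.129, 0.122 and 0.035.

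By sequence context, the difference between SNP and mock in the knob was 3.45 points at CAA and 3.40 at CTA, with pooled SDs of 0.20 and 0.32, and 3.21 at CCG, 1.21 at CAG and 0.70 at CTG, with pooled SDs of 0.55, 0.32 and 0.18. Among the CHG and CHH trinucleotides of the knob, CCT was the only one with a lower mean in SNP, a difference of −4.41 points over 40 sites, at a pooled SD of 2.997. CAA and CTA make up 2117 and 1410 of the 4309 common CHH sites of the knob. In the pericentromere the differences were 3.48 at CAA, 3.53 at CTA, 2.23 at CCG, 1.14 at CAG, 0.85 at CTG and −3.15 at CCT. In the flank they were 2.05, 2.29, 3.40, −0.48, 0.93 and −3.45 in the same order.

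Few windows of the knob passed a test between SNP and mock. With edgeR's quasi-likelihood test and Benjamini-Hochberg adjustment over all windows of a context, 3 of 73 knob windows differed in CG level, where 7.70% of all 10609 windows did. Of the 3, 2 were lower in SNP, against 7.47% of all windows, and 1 was higher, against 0.236%. At an unadjusted edgeR p under 0.05 there were 15, against 24.2% of all windows. In the flank 8 of 57 windows were called, all lower. In CHG 1 of 72 knob windows was called, against 1.24% of all 4776, and it was higher in SNP, against 0.712%. At an unadjusted edgeR p under 0.05 there were 14, against 12.8%. In CHH none of 64 was, and none of all 4947 windows was, while 9 knob windows had an unadjusted edgeR p under 0.05, against 14.1% of all windows. The median difference over tested knob windows was −0.145 points in CG, 1.25 in CHG and 3.24 in CHH, beside −1.80, 1.01 and 3.12 over all windows tested.

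Of the called CG windows, that from 2260001 had the smallest p. Its CG level was 92.3% and 92.2% in mock and 87.2% and 86.0% in SNP, lower by 5.65 points (edgeR adjusted p = 0.000244). It holds AT4G04555 and the end of CRK39. The window from 1780001 had 92.9% and 91.7% against 88.1% and 90.2% (adjusted p = 0.0310, edgeR). The window from 1750001, the only one that was higher in SNP, had 92.1% and 91.1% against 94.3% and 94.3% (adjusted p = 0.0449, edgeR). In none of these did the groups overlap, which adds no support, since the windows were called on these same values. In CHG the window from 1760001 had 74.5% and 76.5% against 80.3% and 79.7% in SNP, higher by 4.51 points (edgeR adjusted p = 0.0335). With at least 10 reads a site no knob window passed in any context. Of the 4, the window from 2260001 alone stayed past the threshold whichever library was left out. That from 1780001 lost the call without mock 1 or SNP 1 (edgeR adjusted p = 0.213 and 0.341), and those from 1750001 and 1760001 lost it without any one of the 4 libraries, with edgeR adjusted p of up to 0.193 and 0.452.

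In CHH the 5 knob windows with the smallest p, from 1830001, 2280001, 1980001, 2190001 and 2250001, were higher in SNP by 6.27, 5.11, 4.40, 5.44 and 6.67 points, with edgeR adjusted p of 0.277 to 0.324. The first had 40.4% and 38.4% in the mock libraries and 45.7% in both SNP libraries. In CHH the SNP libraries both exceeded the mock libraries in 40 of 64 knob windows, against 43.3% of all windows, and both fell short of them in 2, against 6.35%. In CHG these counts were 28 and 4 of 72, against 30.5% and 12% of all windows. In CG they were 12 and 19 of 73, against 7% and 47.0%.

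**Figure D5:**
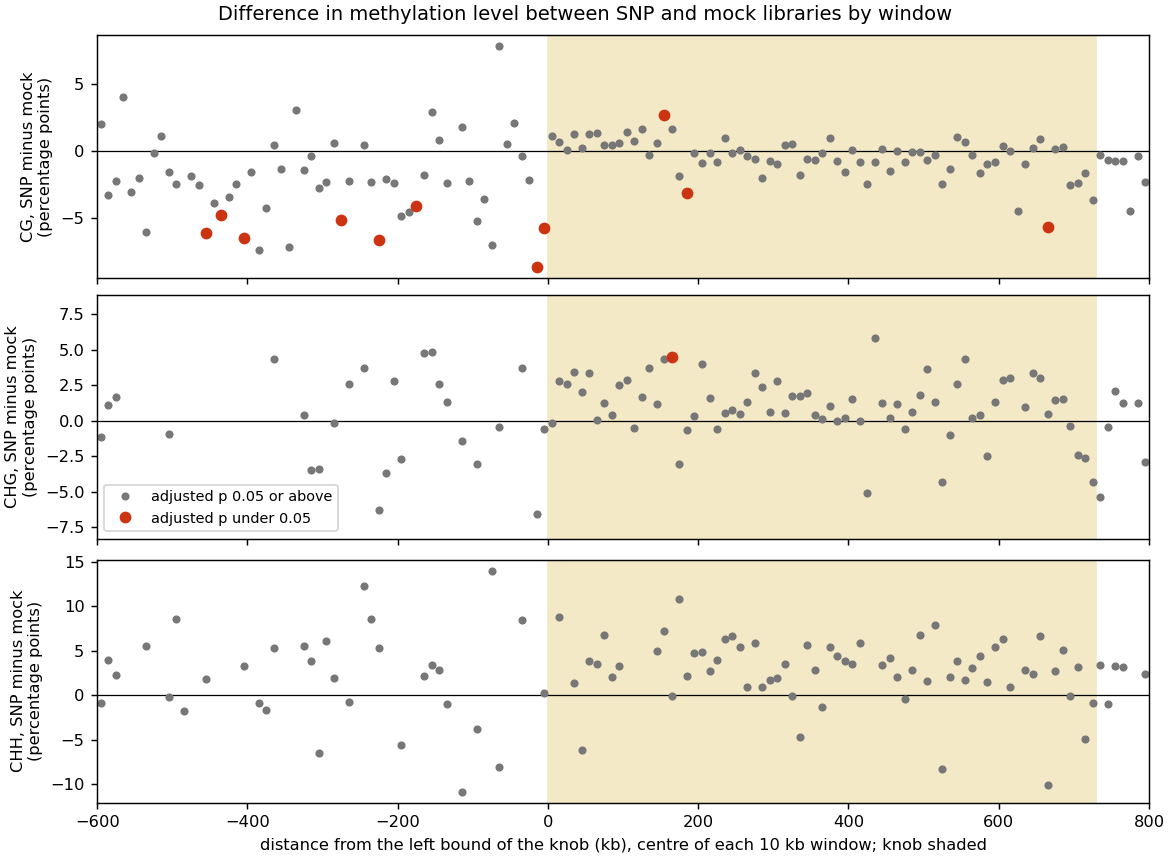
SNP minus mock difference in methylation level (percentage points) of each tested 10 kb window against its distance from the left bound of the knob (shaded), by context, with windows past an adjusted p of 0.05 (edgeR) in red. In the knob 3 CG windows and 1 CHG window are red, and most CHH windows lie above 0.

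For the number of listed sites in a window, no difference between SNP and mock was detectable in the knob at this depth. None of the 73 windows passed in CG, CHG or CHH (edgeR, adjusted p under 0.05), where 0.0976%, 0.119% and 0.00849% of all windows did. At an unadjusted edgeR p under 0.05 there were 0, 1 and 5 knob windows, against 1.08%, 2.26% and 5.45% of all windows, and DESeq2 called none in the knob either. Fitted log2 fold changes of knob windows ran from −0.10 to 0.15 in CG, from −0.19 to 0.18 in CHG and from −0.35 to 0.38 in CHH.

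In gene bodies, 5 of 177 tested knob genes differed in CG level, where 2.39% of all 18081 genes did, 4 of the 5 lower in SNP, against 2.28%, and 1 higher, against 0.111%. At an unadjusted edgeR p under 0.05 there were 23, against 16.9%. AT4G04555, a gene for a Myb family transcription factor on the minus strand at positions 2265647 to 2266799, had a CG level of 97.5% in both mock libraries and of 90.1% and 86.9% after SNP over 30 sites (edgeR adjusted p = 0.000735). All of its CG cytosines were listed in every library. In the stretch of it printed above the level was 95.3% and 94.8% against 87.3% and 72.2%, values that chose the stretch. AT4G04402, the phosphorelay mediator gene named above, had 94.9% in both mock libraries and 86.9% and 89.0% after SNP (edgeR adjusted p = 0.0211).

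The other calls were not protein-coding. The transcribed pseudogene AT4G04375 had 94.3% and 94.0% against 85.1% and 84.2% (edgeR adjusted p = 0.0011). The long non-coding RNA AT4G04785 had 95.5% and 91.9% against 81.6% and 81.3% (edgeR adjusted p = 0.0147), and the pseudogene AT4G03750, which was higher in SNP, had 92.0% and 89.6% against 98.5% and 93.9% (edgeR adjusted p = 0.0386). In all 5 genes the groups did not overlap, which adds no support, since the same library values made the calls. AT4G04555 and AT4G04375 kept the call whichever library was left out. AT4G04785 lost it without mock 1, SNP 1 or SNP 2, AT4G04402 without mock 1, mock 2 or SNP 1, and AT4G03750 without mock 2 or SNP 1, with edgeR adjusted p of up to 0.232, 0.243 and 0.607. With at least 10 reads a site, AT4G04555 and AT4G04375 had edgeR adjusted p of 0.287 and 0.125, and the other 3 had too few sites to be tested. No knob gene passed in CHG, of 148 tested, where 0.299% of all genes did, or in CHH, of 98, where none of 3663 genes did. At an unadjusted edgeR p under 0.05 there were 25 in CHG, against 10.4%, and 12 in CHH, against 15.9%.

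By gene class, the median CG differences of the knob stood as follows beside those of the whole genome. The median was −2.92 points over 45 protein-coding genes of the knob, 35 of them lower in SNP, and −2.68 points over all 13365 protein-coding genes tested, of which 77.5% were lower. Pseudogenes had a median of 0.03 points over 115 in the knob, 57 of them lower, and of 0.02 over all 3824, of which 49.6% were lower. In CHG the median over 114 pseudogenes of the knob was 1.86 points and over all 3518 it was 1.32.

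At a finer scale, 3 of 578 tested bins of 1 kb in the knob differed in CG level, where 0.836% of 40091 bins did, and all 3 were lower in SNP, against 0.798%. The bin from 1785001 had 95.02%, 89.5%, 76.2% and 83.6% in mock 1, mock 2, SNP 1 and SNP 2 (edgeR adjusted p = 0.031). The bin from 1670001, which reaches over the start of AT4G03760 at position 1670638, had 97.9% and 95.1% against 85.8% and 92.7%, and that from 2263001, in the called window, had 92.0% and 96.3% against 88.7% and 83.7%.

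None of the 5 kinase genes passed the test in CG. CRK36 had levels of 83.6% and 84.5% in the mock libraries and 76.7% and 81.7% after SNP (edgeR adjusted p = 0.493). CRK38 had 71.2% and 70.6% against 61.5% and 65.5% (edgeR adjusted p = 0.440), and CRK39 had 81.6% and 76.5% against 68.4% and 73.0% (edgeR adjusted p = 0.305). In these 3 both SNP libraries lay below both mock libraries. The share of all tested genes with that order was not counted, and of all tested 10 kb windows in CG it was 47.0%. A lower mean in SNP was found in 35 of 45 tested protein-coding genes of the knob, against 77.5% of all 13365. In CRK40, with 85.7% and 90.2% against 79.2% and 86.8%, and in CRK37, with 7 sites, the groups overlapped. CRK40 alone had enough CHH sites for a test, 14, with 55.2% and 53.7% against 77.97% and 63.7% (edgeR adjusted p = 0.200).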

How the data were processed

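Genomic DNA of shoot apices was converted enzymatically (EM-seq), sequenced, and aligned by the authors to TAIR10 per the labels, whose processing notes name FastQC and Bismark; versions are not given in the sources used here. The authors deposited a list of methylated cytosines for each library, with the level as a fraction, and the depth as a count of reads. Level times depth was whole in 100% of sites, which gave methylated read counts, and 100% of nuclear positions fell on a cytosine of RefSeq TAIR10.1. Per the methods of the study, methylated cytosines were extracted with the Bismark methylation extractor at default parameters, and only sites found in both replicates were analysed further. The deposited lists are per library, and the rule that gives each listed site at least 2 methylated reads is not given in the sources used here. Shares were taken over reference cytosines and levels over sites with 5 to 50 reads in every library. The methods of the study set a minimum of 10 reads, which is one of the alternatives, because few knob sites reach it in all 4 libraries. Windows of 10 kb with at least 10 such sites, and genes with at least 5, at a level of 5% or more, were tested with edgeR 4.0.16 (R 4.3.3) on methylated and unmethylated counts, and listed sites per window with edgeR after TMM and, as an alternative, DESeq2 1.42.0. Adjusted p-values are Benjamini-Hochberg within a context. Library values were compared by exact permutation tests, which were two-sided. Sequence and gene names come from RefSeq. Wilson intervals are at 95%. Tables used Python 3.11.15, pandas 2.3.3 and numpy 2.4.6, and figures matplotlib 3.10.9.

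The members, lists and bounds were chosen with earlier results of these data known. Named windows were those past a test or the 5 smallest p, the 5 highest and lowest by CHG share and those at the edges. Named genes were those past a test, the 5 highest and lowest protein-coding genes by CHG share, the 5 kinase genes and genes at an edge. Of 28 genes tied as lowest, some were named for their known function. The 120 bases at each edge held no cytosine listed in all 4 libraries and are not printed. Alternatives were the depth limits, site choice, weighting, window width, fits with replicate as a block, each library left out, at least 4 methylated reads, and thinned reads (at least 3 methylated reads left), the last 2 chosen after seeing the data. Gene bodies in CHG and CHH were also added then.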

Additional observations from a re-analysis of the deposited data

How the results depend on the processing

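The CG level difference between SNP and mock in the knob was −1.03 points with at least 10 reads a site. In CHG it was 1.504 with at least 10 reads, 1.60 with each library's own list and 0.779 with thinned reads, and in CHH 2.47 with at least 10 reads, 3.06 with at least 4 methylated reads and 1.51 with thinned reads, so no direction changed. Lifting the upper depth limit as well left the values at 10 reads as they were. Leaving out 1 library gave −0.515 to −0.248 in CG, 0.989 to 1.47 in CHG and 3.08 to 3.61 in CHH.

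Knob minus flank levels with each library's own list were 7.38 points in CG, 6.17 in CHG and −3.70 in CHH, and with at least 10 reads 3.02 in CHG. Without 1 library the CHG value was 0.635 to 1.46. The difference between knob and flank in the SNP effect was 0.495 points in CG with at least 10 reads and 2.94 with each library's own list, and in CHH 0.251 with own lists and 0.504 with thinned reads. In CHG it turned to −0.0428 with at least 10 reads, to −0.353 with each library's own list and to −0.203 without SNP 1, and the cause was not tested. Its range without 1 library was −0.203 to 1.00093. The ratio of listed shares was 2.57 and 2.21 in CG with at least 5 and 10 reads, 6.59 in CHG with at least 5 and 2.99 in CHH with at least 10.

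Calls by level over the whole genome fell to 0 in CG and 0 in CHG with at least 10 reads, where fewer sites remain, and rose to 2 in CHH, with 0 knob calls in CG and CHG. With 1 kb windows there were 335 in CG and 20 in CHG. Windows of 5 kb gave 5 knob calls in CG and 0 in CHG, and windows of 1 kb 0 in CHG. Without 1 library there were 194 to 599 calls in CG and 10 to 38 in CHG, of which 1 to 2 and 0 lay in the knob. For numbers of listed sites DESeq2 called 1 window in CG, 3 in CHG and 2 in CHH, no filter gave 14 in CHG, and without 1 library there were 7 to 13, 2 to 15 and 2 to 4. Gene bodies gave 1 call with at least 10 reads and 873 over all contexts summed, 0 and 1 of them in the knob, and 121 to 404 without 1 library, 2 to 4 in the knob.

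Whether the replicate numbers pair the samples could not be decided. The difference between replicates in mock and that in SNP correlated over windows at 0.02, −0.003 and 0.006 in CG, CHG and CHH. Library medians were removed first, so a shift shared over the genome would not show, and counting error may lower such correlations. With the replicate as a block the level differences of the knob were −0.382, 1.21 and 3.29 points. They equal the main values by construction in this balanced design, so they are no check. The SDs of the differences within replicates were 0.252, 0.517 and 0.226 points. The block gave 552 CG, 24 CHG and 0 CHH calls by level, with 1 in the knob in CG and 0 in CHG, 19, 16 and 3 calls by listed sites, with 0 in the knob, and 483 gene bodies, 5 of them in the knob.

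With 5 windows on either side the edges fell at 1590000 and 2200000 in CG and the left CHH edge at 1650000. With 1 kb windows the left edges of the pooled libraries were at 1593000 in CG, CHG and CHH and the right edges at 2367000 in CG and CHG and at 2368000 in CHH. Of the named windows and genes, none reversed under any alternative run.

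Depth limits what can be said of CHH, where 52.8% of listed knob cytosines were listed in 1 library only. Lists without uncalled sites bear on every share and level.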
